A study of Mus musculus with 35 samples.

Results

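The wells described here were 81 microglia-like wells of plate 5, a plate of single cells sorted from the brain of *Mof* knockout mouse embryos at E14.5. They were chosen by 4 sums of 4 marker genes each. A well was taken when it held more than 1500 transcripts, spike-ins left out, and when the summed transcripts of *C1qa*, *C1qb*, *Ctss* and *Csf1r* exceeded the sums for mural cells (*Rgs5*, *Pdgfrb*, *Vtn*, *Kcnj8*), endothelial cells (*Kdr*, *Cldn5*, *Cd93*, *Cdh5*) and neural cells (*Sox2*, *Fabp7*, *Tubb3*, *Stmn2*). Of the 384 wells on the plate, 195 passed the transcript minimum, among 1591 such wells in the whole series. The sums placed 81 of the 195 as microglia-like, 108 as neural-like and 2 as endothelial-like, and 4 were tied. None was mural-like. The other knockout plates, 4 and 6, held 0 and 2 microglia-like wells, so plate 5 carried nearly all of the knockout microglia-like cells of the series.

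Each plate was split into libraries, and plate 5 gave libraries 5 to 8 with 33, 28, 9 and 11 microglia-like wells. The comparison group was wild type at the same embryonic stage: wells of plates 1 and 2 that the well list assigns to the microglia sorting gate (cd41_pos_cd45_med) and that passed the same marker rule. Of the gated wells over 1500 transcripts, these were 63 of 64 in library 2 of plate 1 and 58 of 58 in library 6 of plate 2. For the knockout plate the gate of each well was not given, so the knockout wells were found by transcripts alone. The labels give the genotype as *Mof* knockout without naming the allele, a Cre driver, the strain or the number of embryos per plate, and genotype and plate cannot be told apart because the knockout wells came from 1 plate. p-values therefore measure only the spread between these plates or libraries, which may be technical. For plates, this spread was pooled over genes.

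Microglia are the macrophages of the brain parenchyma. They descend from yolk sac progenitors that enter the embryonic brain, depend on signalling through the receptor CSF1R, and clear dying cells and prune synapses with the help of complement. A related lineage, the border macrophages of the meninges, perivascular space and choroid plexus, carries the mannose receptor MRC1 and the chemokine PF4. MOF, encoded by *Kat8*, is a histone acetyltransferase that works within the MSL and NSL protein complexes and supports transcription of housekeeping and mitochondrial genes.

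The choice rested on clear marker levels in most wells and on few transcripts in some. The microglia sum ran from 1 to 220 transcripts per well with a median of 52.1, and 5 wells held fewer than 5. Just inside the depth minimum were wells of 1568 and 2074 transcripts, whereas among 23 wells of the plate left out for depth with the microglia sum largest, the deepest held 798. The narrowest lead of the microglia sum over the next sum was 1 transcript, and the highest microglia sum in a plate 5 well given to another type was 8.0. In wild type the median microglia sum was 103 on plate 1 and 101 on plate 2. The wells were also shallower: the 81 knockout wells had a median of 8702 transcripts, against 10986 and 10836 in the 2 wild-type plates. Unused barcodes of the plate 5 libraries, which should hold no cell, had a median of 148 transcripts and together 3.21% of all transcripts, and 68 of 384 held a microglia marker, at most 3 transcripts. None of them held both *Mrc1* and *Pf4*.

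**Figure D1:**
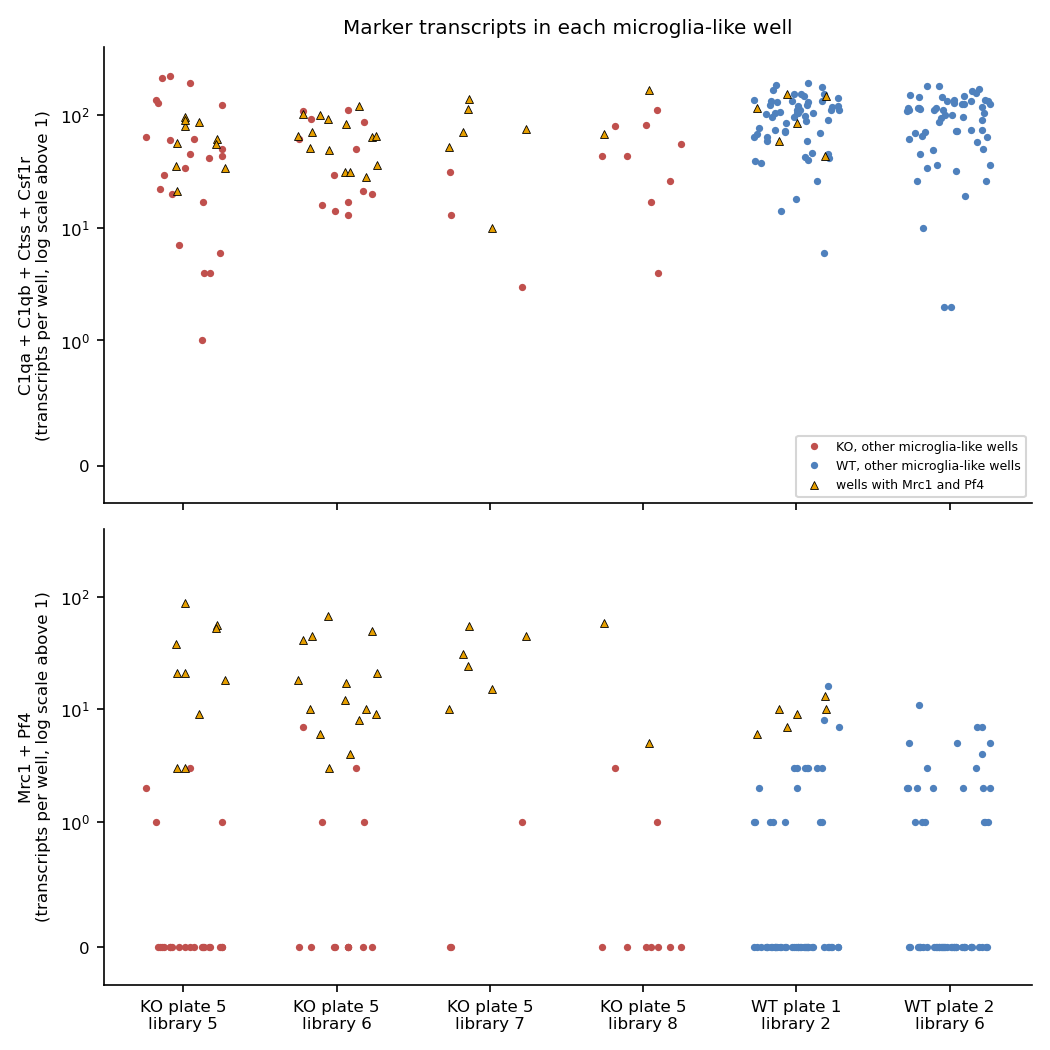
Each point is 1 microglia-like well, placed by library (x axis), with the summed microglia markers (upper panel) or *Mrc1* plus *Pf4* (lower panel) in transcripts per well on an axis that is logarithmic above 1. Triangles are wells with at least 1 transcript of both *Mrc1* and *Pf4*: 33 in the 4 knockout libraries, 6 on wild-type plate 1 and 0 on plate 2.

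*Kat8* itself (ENSMUSG00000030801, chr7:127912516-127925837 of GRCm38) was too sparse to check the genotype. Outside the wells set apart by *Mrc1* and *Pf4* it had transcripts in 4 of 48 knockout wells, against 5 of 57 and 8 of 58 wild-type wells. Summed over wells this was 15.3 CPM (transcripts scaled to a common total for all groups) in the knockout and 8.32 and 15.5 CPM in wild type, so the groups overlapped, and the gene did not pass the filter on low counts. Transcripts were read from their 3′ end, so a deletion elsewhere in the gene need not change this count. Of the 12 genes for MOF and its complex partners, 11 were tested (tests are described with the comparison of all genes) and none was called. Their median log2 fold change was 0.31, beside -0.01 over all 7552 genes tested. The largest was that of *Kansl2*, an NSL subunit, at 1.03 (SE 0.65, adjusted p = 0.61, edgeR). *Msl1*, the scaffold of the MSL complex, was at 143, 122 and 121 CPM in knockout libraries 5, 6 and 8 and at 101 and 87.0 CPM in wild type, a log2 fold change of 0.56 with an adjusted p of 0.44 (edgeR).

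Some microglia-like wells of the plate held border macrophage transcripts. Of the 81 microglia-like knockout wells, 33 held at least 1 transcript of *Mrc1* and at least 1 of *Pf4*, and these were set apart from all comparisons of other genes. They held 3 to 88.6 transcripts of the pair, with a median of 18.0. Of the other 48 wells, 9 had *Mrc1* alone and 2 had *Pf4* alone, at most 7.0 and 1 transcripts. In wild type, the 6 wells with both held at most 13 transcripts of the pair. *Mrc1* alone was common in wild type, in 19 of 57 and 22 of 58 wells, but *Pf4* was found in none of these wells. Since the choice used *Mrc1* and *Pf4*, what follows on the set-apart wells is a description with no test.

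Other border macrophage genes that the choice did not use were high in the same wells. *Dab2*, an endocytic adaptor, was at 994, 1042, 1267 and 1017 CPM in the set-apart wells of libraries 5 to 8, against 76.7, 183 and 190 CPM in the other microglia-like wells of libraries 5, 6 and 8 and 151 and 117 CPM in wild type. The set-apart wells were thus above every other group in each library. *Stab1*, a scavenger receptor, was at 351, 367, 593 and 348 CPM in the set-apart wells and at 102 CPM in the other knockout wells. *F13a1*, a subunit of coagulation factor XIII, had transcripts in 22 of 33 set-apart wells and 4 of the other 48. *Lyve1*, the hyaluronan receptor of perivascular and lymphatic cells, was found in 13 of the 33 at 378 CPM over all of them, and in no other microglia-like well of either genotype. *Cd36*, a fatty acid receptor, reached 182 against 28 CPM, and *Ms4a7* 165 against 30.5 CPM. Summed over the 15 other genes of the border macrophage list, the set-apart wells reached 2948, 3160, 2977 and 2527 CPM in libraries 5 to 8, beside 547 CPM in the other knockout wells and 353 and 312 CPM in wild type. *Cd163* and *Cd209f*, of the same list, were found in at most 1 well of any of these groups.

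Several microglia genes had lower summed levels in these wells. *Sparc*, a matrix protein strongly expressed by fetal microglia, was at 132 CPM in the set-apart wells and 1218 CPM in the other knockout wells, and its 4 set-apart library values (29.0 to 269 CPM) all lay below the 3 others (686 to 1562 CPM). *Serpine2*, a protease inhibitor, was at 24.96 against 229 CPM. *P2ry12*, the ADP receptor by which microglia sense injury, was at 227 against 543 CPM. It had transcripts in 28 of 33 set-apart wells and 30 of the other 48. *Sall1*, a transcription factor that maintains microglial identity, had transcripts in 2 of 33 set-apart wells and 15 of the other 48. *Serpine2*, *Fcgrt* and *Iqgap2* stand in no fixed list and were picked after their values were seen, from a ranking of genes found in at least 1 of every 2 wells of the group where they were higher. *Fcgrt*, the neonatal Fc receptor, was at 190 against 38.2 CPM and *Iqgap2*, a scaffold protein, at 69.9 against 5.09 CPM. *Maf*, a macrophage transcription factor, was at 950 against 520 CPM. Genes shared by all macrophages were alike in both: *C1qc* was at 1700 and 1746 CPM and *Tyrobp* at 805 CPM in both groups. The 6 wild-type wells with *Mrc1* and *Pf4* had 617 CPM of *Mrc1*, 137 CPM of *Pf4*, 274 CPM of *Dab2* and 68.5 CPM of *Sparc*. Set-apart wells were the deeper ones of the plate, with a median of 10938 transcripts against 6861 in the other 48.

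**Figure D2:**
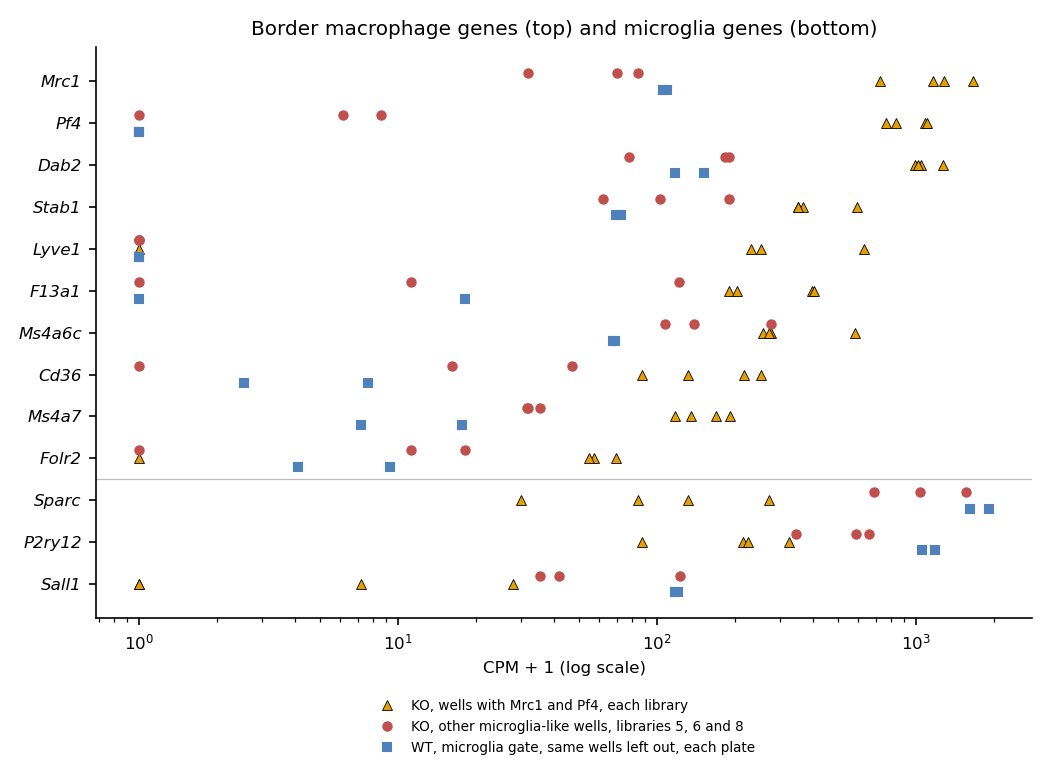
Levels in CPM plus 1 (log x axis, so a level of 0 lies at 1) of border macrophage genes (upper rows) and microglia genes (lower rows). Triangles are the set-apart wells of each knockout library, circles the other microglia-like wells of knockout libraries 5, 6 and 8, and squares the wild-type plates. *Dab2* in the set-apart wells lies between 994 and 1267 CPM, above all circles and squares.

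The share of set-apart wells differed widely between the knockout libraries. It was 30.3% in library 5 (10 of 33, exact 95% interval 15.6 to 48.7), 53.6% in library 6 (15 of 28, 33.9 to 72.5), 66.7% in library 7 (6 of 9, 29.9 to 92.5) and 18.2% in library 8 (2 of 11, 2.28 to 51.8). In wild type it was 9.52% on plate 1 (6 of 63, 3.58 to 19.6) and 0 of 58 on plate 2, which allows up to 6.16%. These intervals cover counting error only. As a measure of background, 1 of 108 neural-like wells of plate 5 held both transcripts, or 0.926%, at a median depth of 7556 transcripts. Deeper wells can show the pair more easily, so each well was also thinned to 1500 transcripts. The shares were then 15.2%, 25%, 33.3% and 9.09% in the knockout libraries and 0% in both wild-type libraries. Over all possible draws the expected shares were 16.6%, 24.2%, 32.5% and 9.22%, against 1.55% and 0%. The mean of the 4 knockout libraries exceeded that of the 2 wild-type libraries by 20.6 percentage points, with no overlap. This is a description: the share is built from the pair that set the wells apart, the 4 knockout libraries came from 1 plate, and an exact permutation test over 15 splits cannot give a two-sided p below 0.133. The wild-type wells had passed the gate that the well list names cd41_pos_cd45_med, where the study's text describes CD11b and CD45 for microglia, and the gate of the knockout wells is not given, so the gate can set this share and cannot be told apart from the genotype. Taking wild-type wells of any gate added 1 well to these libraries, which cannot test the gate.

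Sex-linked transcripts split the plate by library. *Xist*, the RNA that silences an X chromosome in females, and 4 Y-linked genes (*Ddx3y*, *Eif2s3y*, *Kdm5d*, *Uty*) were counted per well. In library 5, 24 of 33 microglia-like wells had a Y-linked transcript and 0 had *Xist*, and in library 8 the numbers were 9 and 0 of 11. In library 6, 22 of 28 had *Xist* and 0 had a Y-linked transcript. The 9 wells of library 7 held 5 with a Y-linked transcript and 1 with *Xist*. No microglia-like well of plate 5 held both. Neural-like wells of the same libraries did not follow the same split: in library 6, 15 of 25 had a Y-linked transcript and 4 had *Xist*, and in library 7, 25 of 33 had *Xist* and 6 a Y-linked transcript. Wild-type microglia-like wells had *Xist* in 56 of 63 and 55 of 58. Set-apart wells were present in libraries of either kind. The 3 tested sex-linked genes were all called between knockout and wild type: *Xist* was at 0, 434 and 0 CPM in libraries 5, 6 and 8 against 518 and 546 CPM, and *Ddx3y* at 138, 0 and 172 CPM against 1.66 and 0 CPM. Without library 5, no sex-linked gene was called. The part of embryo sex in the other differences was not tested.

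**Figure D3:**
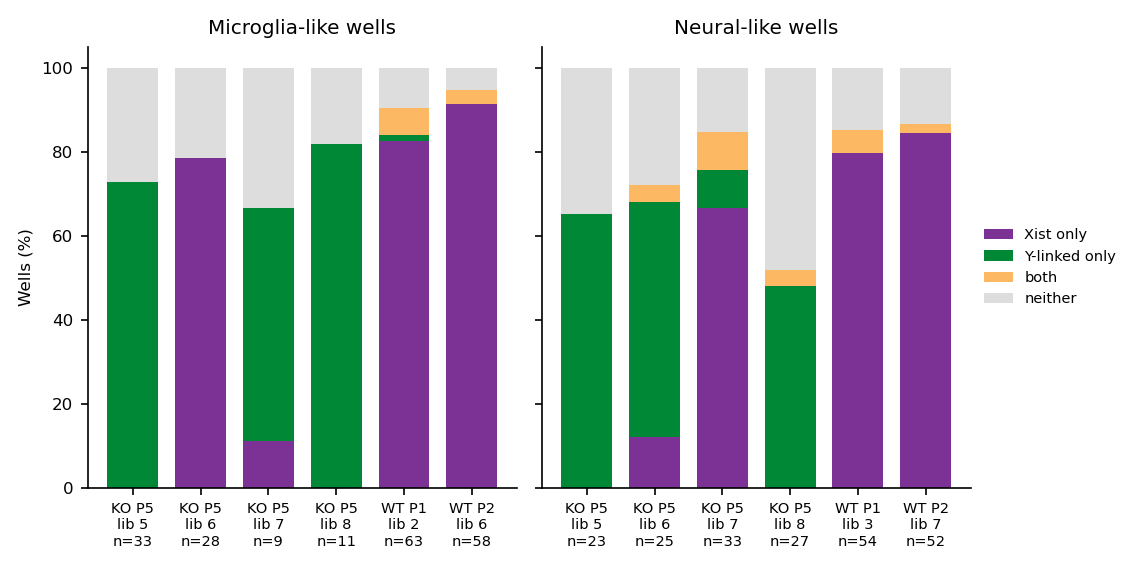
Share of wells (y axis, percent) with *Xist* only, a Y-linked transcript only, both or neither, by library (x axis, n wells below), for microglia-like wells (left) and neural-like wells (right). In library 6 the microglia-like wells carry *Xist* in 22 of 28 and the neural-like wells a Y-linked transcript in 15 of 25.

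A few wells carried many transcripts of other blood cells. In library 5, 1 well of 8826 transcripts held 68.6 transcripts of *H2-Aa*, 47.3 of *H2-Eb1* and 37.2 of *Cd74*, which encode and chaperone MHC class II, along with 75.7 of the chemokine receptor *Ccr7* and 33.1 of the chemokine *Ccl22*. Another well of the same library held 58.4 of *H2-Aa* and 42.2 of *Cd74*. Their microglia sums were 7.0 and 4.0, and neither held *P2ry12* or *Cx3cr1*. In library 6, 1 well held 22.1 transcripts of *Mpo*, the neutrophil and monocyte peroxidase, with 17.0 of *Plac8*, at 27416 transcripts. In 2 further wells *S100a8*, which is abundant in neutrophils, gave 29.1 and 24.1 transcripts. At least 10 transcripts of the monocyte and granulocyte genes were found in 3 of 48 knockout wells, against 1 of 57 and 2 of 58 in wild type, and at least 10 of the MHC class II genes with *Ccr7* in 2 of 48 against 0 and 0. Of 7 monocyte and granulocyte genes tested in the comparison given further on, all lay above 0 with a median log2 fold change of 1.02, and 3 were called higher: *Mpo*, *S100a8* and *S100a9*, with 100%, 54.7% and 81.3% of their knockout transcripts in 1 well. A further 4 genes did not pass the filter on low counts, which 1 plate sum alone could meet. The direction and median of the 7 are thus partly set by the filter. Summed, the monocyte and granulocyte list was at 1192 CPM in the 48 knockout wells, level with the 1189 CPM of wild-type plate 2. Plate 1 was at 505 CPM. Red cell genes were at 0 CPM in the 48 knockout wells and in wild type, and 1 set-apart well of library 8 held a transcript of them. In the 48 wells fibroblast genes summed to 15.3 CPM against 11.6 and 17.1 CPM, mural genes to 120 against 56.6 and 99.4 CPM, endothelial genes to 40.7 against 58.2 and 76.1 CPM, and platelet genes to 33.1 against 19.96 and 43.5 CPM. Neural genes summed to 418 CPM against 226 and 190 CPM. They were uneven: *Sox11*, a transcription factor of new neurons, was at 97.3, 38.1 and 34.5 CPM in libraries 5, 6 and 8, at 2119 CPM in the 3 remaining wells of library 7, and at 2806 CPM in the neural-like wells of the plate.

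To compare the remaining genes, transcripts were summed over the 48 knockout wells without the set-apart ones (23, 13, 3 and 9 per library, 393053 transcripts) and over the 57 and 58 wild-type wells (601273 and 643695 transcripts). The plate was taken as the sample. The spread behind each p-value was pooled over genes, as the prior degrees of freedom were infinite. An adjusted p thus does not weigh a gene against its own difference between the wild-type plates. Called genes are also placed by library below. The libraries make up the tested sum, so their side is largely set by the call and is no support. How many of all tested genes lay on the same sides, there or in neural-like wells, was not counted. In edgeR's quasi-likelihood test with Benjamini-Hochberg adjustment, 129 of 7552 genes were higher in the knockout (1.71%) and 47 were lower (0.622%), and 885 had an unadjusted p below 0.05. Of the 129, 94 lay above the median of the wild-type plates in each of libraries 5, 6 and 8, and 86 lay above both plates. Among the 129, 35 had over 30% of their knockout transcripts in 1 well, and 99 also lay above wild type in the neural-like wells of the plate. Of the 47 lower genes, 46 lay below that median in the 3 libraries and 42 below both plates. Among the 47, 8 had over 30% in 1 well, and 33 also lay below wild type in the neural-like wells. With 1 knockout plate, its spread is assumed to be that of the wild-type plates, and DESeq2 on the same sums called 7 and 1 genes. Leaving out library 5 brought the counts to 50 and 44.

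Part of the microglia identity list fell. All 26 genes were tested, 6 fell and none rose, and 23 had a log2 fold change below 0, with a median of -0.27 beside -0.01 over all genes tested. The count depended on the setting: 2 genes were called lower without library 6, 4 without library 8, 7 without library 5 and 10 with the set-apart wells kept in. It stayed at 6 with total transcripts, without the filter and at 3000 transcripts per well, and was 3 when the microglia sum had to reach 5 transcripts and 2 times the next sum. Thinned wells gave 1, and none was called with libraries as samples, with wild-type plate 3 added or by DESeq2. *P2ry12* (ENSMUSG00000036353, chr3:59216272-59262871) was at 661, 342.7 and 587 CPM in knockout libraries 5, 6 and 8 and at 1180 and 1054 CPM in wild type, without overlap, and had transcripts in 30 of 48 wells against 54 of 57 and 55 of 58. The log2 fold change was -0.98 (SE 0.21, adjusted p = 0.00038, edgeR). *P2ry13*, a sister receptor, was at 148, 167 and 224 CPM against 351 and 288 CPM (log2 fold change -0.88), and *Siglech*, a sialic acid lectin, at 281, 137 and 138 CPM against 395 and 414 CPM (-0.87). *Ly86*, a secreted cofactor of a Toll-like receptor homologue, was at 1253, 915 and 293 CPM against 1740 and 1706 CPM (log2 fold change -0.75), and *Slc2a5*, a fructose transporter, at 76.8, 0 and 51.7 CPM against 103 and 134 CPM (-1.30). For these 5 of the 6 called genes the knockout libraries all lay below wild type.

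Several genes of the list that other macrophages share were not called. *C1qc* was at -0.09 on the log2 scale, *Tyrobp*, a signalling adaptor, at 0.06, *Aif1* at -0.05 and *Trem2* at -0.17. *Cx3cr1*, the fractalkine receptor, was at 995, 610 and 897 CPM against 1240 and 1277 CPM, with an adjusted p of 0.20 (edgeR). *Sparc* was at 1562, 686 and 1036 CPM against 1624 and 1924 CPM (adjusted p = 0.23, edgeR). Of the choosing genes, whose tests are not used, *C1qa* and *C1qb*, chains of complement C1q, were at 956 and 2640 CPM in the knockout sum, against 724 and 984 CPM for *C1qa* and 3422 and 3269 CPM for *C1qb* in wild type. *Csf1r*, the receptor microglia need to survive, was at 1454 CPM against 2129 and 1964 CPM, and *Ctss*, a lysosomal protease, at 1718 CPM against 2890 and 2260 CPM.

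Fewer identity genes were called in a smaller set of wells. Wells without a transcript of any of *P2ry12*, *P2ry13*, *Siglech* and *Sall1* were 13 of 48 in the knockout. In wild type they were 2 of 57 and 1 of 58. After thinning to 1500 transcripts they were 23 of 48 against 7 and 5. Among the set-apart knockout wells they were 1 of 33, and 16 of 33 after thinning. When every well with a monocyte, granulocyte or MHC class II transcript was left out of each genotype, 35 of 48 knockout wells and 43 of 57 and 41 of 58 wild-type wells remained, a choice made after seeing the data. Most wells left out held fewer than 10 such transcripts and need not be other blood cells, and the part of such cells in calls lost in this leukocyte-free set was not tested. Of the identity list, 1 gene was then called lower. *P2ry12* was at -0.52 (adjusted p = 0.41, edgeR), *P2ry13* at -0.60 (0.43), *Siglech* at -0.75 (0.19) and *Slc2a5* at -0.66 (0.62), whereas *Ly86* stayed called at -0.81 (0.033). In that set *P2ry12* was at 714 CPM against 1148 and 978 CPM. DESeq2 called none of these 5 genes on the full sums, with adjusted p from 0.68 to 0.999.

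**Figure D4:**
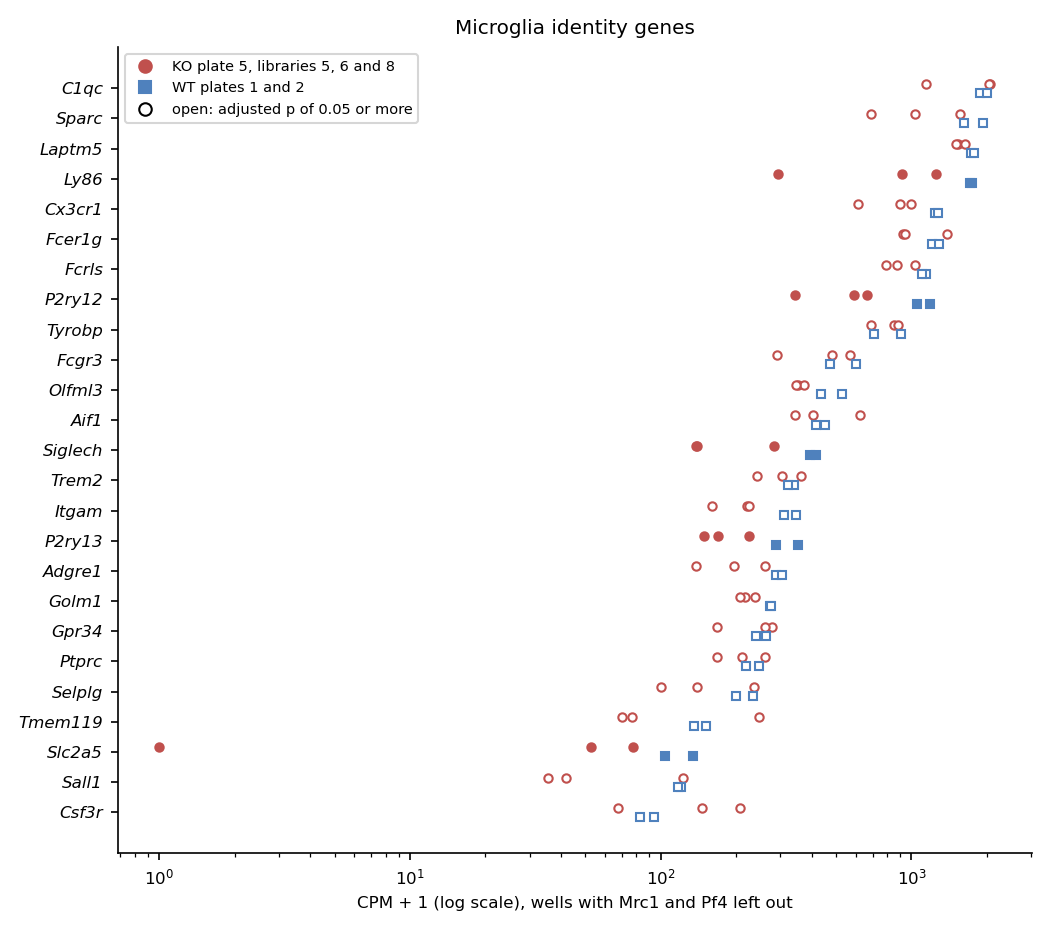
Levels in CPM plus 1 (log x axis, a level of 0 lies at 1) of 25 of the 26 microglia identity genes in knockout libraries 5, 6 and 8 (circles) and wild-type plates 1 and 2 (squares), set-apart wells left out. Filled symbols mark the 5 plotted genes that passed the test, each with its 3 circles below both squares, and 1 further called gene of the list is not plotted.

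Myeloid transcription factors showed no call in either direction among 16 tested, with a median of -0.02. *Spi1*, which encodes the master regulator PU.1, was at 128, 122 and 138 CPM against 83.2 and 118 CPM, and *Irf8* at 205, 198 and 121 CPM against 168 and 185 CPM. *Runx1*, a regulator of blood formation, was at 107, 98.9 and 121 CPM against 173 and 216 CPM, with a log2 fold change of -0.83 and an adjusted p of 0.12 (edgeR). *Bhlhe41* was at 1.28 (adjusted p = 0.18, edgeR). Of the 15 border macrophage genes outside the choosing pair, 7 did not pass the filter on low counts, and all 8 tested lay above 0 with a median of 1.31. Of these 1 was called: *Ms4a6c* at 138, 107 and 276 CPM against 68.2 and 66.8 CPM (1.19), a call lost without library 8 (adjusted p = 0.105, edgeR). In the leukocyte-free set *Ms4a6c* was at 0.32 (adjusted p = 0.87, edgeR). A gene could pass the filter on 1 plate sum alone, so a sparse gene could enter through its knockout level. *Cd36*, for example, was tested with 6.65 and 1.55 CPM in wild type. The direction and median of the 8 tested genes are thus partly set by the filter. Summed without a filter, the 15 genes were at 547 CPM against 353 and 312 CPM, a difference that was not tested.

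Of 17 genes tested in the chemokine and cytokine list, 3 secreted signals fell and 1 gene rose, the intracellular inhibitor *Nfkbia*. The count of higher genes was 3 without library 5 or library 6 and 0 without library 8. Outside the list, the chemokines *Ccl22* and *Ccl5*, picked after their values were seen, were called higher, with 100% and 88.3% of their knockout transcripts in 1 well. *Il1a* (ENSMUSG00000027399, chr2:129299610-129309972), an interleukin released by damaged or primed cells, was at 87.0, 53.3 and 17.2 CPM against 306 and 241 CPM, in 13 of 48 wells against 35 of 57 and 32 of 58. Its log2 fold change was -1.77 (SE 0.30, adjusted p = 1.1e-06, edgeR), and -1.63 (adjusted p = 0.00011, edgeR) in the leukocyte-free set. The related *Il1b* was at 164, 114 and 17.2 CPM against 83.3 and 101 CPM (0.47, adjusted p = 0.61, edgeR). The chemokine *Ccl9* was at 46.0, 76.1 and 34.5 CPM against 127 and 165 CPM (-1.38), and *Ccl2*, which recruits monocytes, at 10.2, 30.5 and 34.5 CPM against 81.5 and 70.2 CPM (-1.82). *Ccl2* was at 205 CPM in the set-apart wells, and with those wells kept in its log2 fold change was 0.66 (adjusted p = 0.23, edgeR). *Ccl3* and *Ccl4*, chemokines that microglia release, were not called, at -0.32 and -0.55. *Nfkbia*, which holds back NF-kappaB, rose at 0.84 with library values of 128, 434 and 848 CPM against 183 and 212 CPM, so library 5 lay below wild type. *Tnf* had 84.0% of its knockout transcripts in 1 well of library 8.

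Genes of phagocytic and lipid-linked microglia were mixed, with 3 higher, 2 lower and a median of 0.16 among 22 tested. Without library 5 the counts were 2 higher and 0 lower, without library 6 they were 1 and 3, and without library 8 they were 3 and 4. With total transcripts in place of TMM scaling the balance turned, to 2 higher and 5 lower. *Lgals3*, a galectin of activated phagocytes, was at 159, 152 and 190 CPM against 36.6 and 111 CPM (log2 fold change 1.15, adjusted p = 0.0063, edgeR), in 19 of 48 wells against 6 of 57 and 13 of 58. *Lgals1* was at 87.0, 275 and 328 CPM against 73.2 and 79.3 CPM (1.33), and *Csf1*, the ligand of CSF1R, at 174, 282 and 190 CPM against 69.9 and 174 CPM (0.88). In the leukocyte-free set their log2 fold changes were 1.38, 0.72 and 0.85, and none was called, with adjusted p of 0.42, 0.65 and 0.11 (edgeR). *Cd63*, a tetraspanin of late endosomes, was at 333, 396 and 483 CPM against 801 and 596 CPM (-0.83) and stayed called in that set (adjusted p = 0.0497, edgeR). *Spp1*, or osteopontin, was at 143, 213 and 155 CPM, between the 711 CPM of plate 1 and the 7.77 CPM of plate 2, so its call rested on plate 1. *Apoe* was at 3983, 3866 and 6791 CPM against 6277 and 6078 CPM and was not called (-0.45, adjusted p = 0.14, edgeR). In the lysosome list 2 of 29 fell, *Cd63* among them, with a median of -0.12. The count was 1 without library 5, 3 without library 6 or with total transcripts, and 0 under the stricter rule on the microglia sum.

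Stress genes of the early response, which dissociation is known to induce, had 1 higher and 2 lower members among 24. *Btg2*, an antiproliferative gene, fell by 1.15 on the log2 scale (246, 228 and 155 CPM against 461 and 577 CPM, adjusted p = 0.0003, edgeR), and *Hspa5*, the endoplasmic reticulum chaperone, by 0.67. *Fos* and *Junb* were not called, at -0.11 and -0.22. *Hspa1a*, a heat shock protein, rose at 1.22, but 65.9% of its knockout transcripts came from 1 well of library 6, and without that library its value was -0.25. Interferon response genes had 2 of 11 tested higher, *Isg15* and *Irf7*, with 41.7% and 61.9% of the knockout transcripts in 1 well. Without library 5 *Isg15* was not called and *Irf7* did not pass the filter. The list summed to 585 CPM against 418 and 409 CPM, but in the leukocyte-free set to 319 CPM against 351 and 457 CPM. No interferon response gene was called in that set. *H2-T23*, a nonclassical MHC class I gene, was the 1 of 11 class I genes called, at 225, 83.7 and 138 CPM against 64.9 and 68.4 CPM (1.33, adjusted p = 0.00092, edgeR), and it stayed called in the leukocyte-free set (adjusted p = 0.024, edgeR) but not without library 5 (0.55, adjusted p = 0.67, edgeR). *B2m*, the common light chain of class I, was at -0.43 and not called. Complement genes other than those used for choosing had no call among 9, with a median of -0.39, and 1 lower without library 5.

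**Figure D5:**
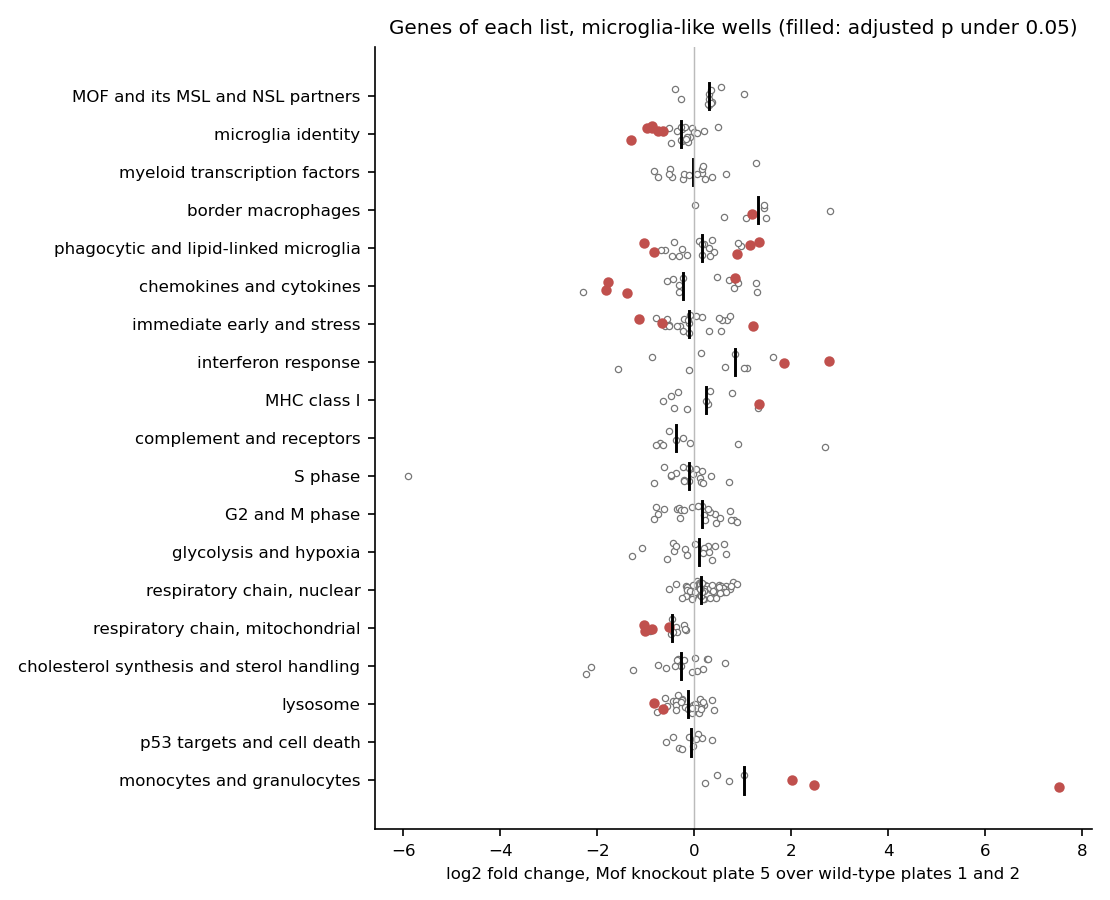
Log2 fold change of each tested gene (x axis, knockout plate 5 over wild-type plates 1 and 2) for the gene lists with at least 7 genes tested (rows). Filled circles passed the test, open circles did not, and the bar is the median of the list, for example -0.27 for microglia identity and -0.47 for the mitochondrial respiratory chain.

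Division and energy genes showed no call among nuclear genes. None of 19 S phase genes and none of 23 G2 and M phase genes was called, with medians of -0.11 and 0.15. Without library 6, 3 of the G2 and M phase genes were called lower, and without library 5, 1 was called higher. Wells with at least 3 transcripts of the G2 and M phase list, after thinning to 1500, were 30.4%, 53.8% and 0% in knockout libraries 5, 6 and 8 and 28.1% and 37.9% in wild type. The groups overlapped (exact permutation test over libraries, p = 1, where the smallest possible was 0.2). For genes detected per well at 1500 transcripts the library medians were 786, 821 and 833 against 827 and 830 (exact permutation p = 0.6). Targets of p53 and cell death genes had no call among 10, and 1 lower without library 5. Glycolysis and hypoxia genes had none among 18, and the sterol list none among 17.

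The respiratory chain split by genome. Of 57 nuclear-encoded subunits none was called, 42 lay above 0 and the median was 0.15. Of the 13 mitochondrially encoded subunits all lay below 0, with a median of -0.47, and 4 fell: *mt-Nd5* at 3024, 2602 and 3064 CPM against 6323 and 4844 CPM (-0.87), *mt-Nd4l* (-1.01), *mt-Atp8* (-1.04) and *mt-Atp6* (-0.53). Mitochondrial transcripts together made up 10.3% of the knockout sum against 17.1% and 14.0%. The 3 remaining wells of library 7, with 8037 transcripts in all, were at 20.2%, above both. The neural-like wells of the same plate were also lower, at 11.1% against 14.7% and 12.4%, so the difference was not confined to the microglia-like wells. In the 6 microglia-like wells of wild-type plate 3 the share was 7.30%, below that of the knockout. With that plate added, or by DESeq2, no mitochondrially encoded subunit was called. With libraries as samples 2 were called lower. Of 73 genes for cytosolic ribosomal proteins 10 rose and 68 lay above 0, with a median of 0.34. They summed to 75660 CPM against 62446 and 66849 CPM, and in the neural-like wells to 67743 CPM against 55185 and 51591 CPM, so these too were higher in both kinds of well.

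Genes with the largest fold changes were named where libraries 5, 6 and 8 all lay on 1 side of the median of the wild-type plates, a limit that leaves out genes found in 1 library such as *Ccr7*. Among lower genes with libraries 5, 6 and 8 below the median of the wild-type plates, *Rcan1*, an inhibitor of calcineurin, was at 10.2, 15.2 and 17.2 CPM against 74.9 and 85.5 CPM (-2.31), and *Gem*, a small GTPase, at 5.11, 30.4 and 0 CPM against 94.9 and 45.1 CPM (-2.36). *Slc12a2*, a sodium, potassium and chloride cotransporter, was at 40.9, 53.3 and 68.9 CPM against 151 and 190 CPM (-1.68), in 14 of 48 wells against 37 of 57 and 38 of 58. *Mmgt1*, *Mapkbp1*, *Pcmt1* and *Rad50*, a subunit of the DNA break repair complex MRN, were lower by 1.77 to 2.71 on the log2 scale. *Hdc* and *Ifitm1* were called lower but came from 2 and 5 wells of wild-type plate 2 in the main. *Rcan1*, *Gem* and *Slc12a2* stayed called in the leukocyte-free set.

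Among higher genes within the same limit, *Mme*, the peptidase neprilysin, was at 97.2, 129 and 51.7 CPM against 11.6 and 31.1 CPM (log2 fold change 2.25, SE 0.40, adjusted p = 5.4e-06, edgeR), in 20 of 48 wells against 5 of 57 and 17 of 58, and it stayed called in the leukocyte-free set (2.45, adjusted p = 0.00018, edgeR). *Nnat*, *Sox11* and *Map1b*, abundant in neural cells, were at 3.61, 2.97 and 2.03, and were at 2989, 2806 and 1441 CPM in neural-like wells of the plate. Among the knockout libraries *Sox11* was highest in the 3 remaining wells of library 7. Its call was lost under the stricter rule on the microglia sum. *Nnat* was at 128, 60.9 and 121 CPM in libraries 5, 6 and 8 against 18.3 and 7.77 CPM. The level of *Cd74* was 447 CPM in library 5, 7.61 in library 6 and 34.5 in library 8, beside 8.32 and 3.11 CPM, with 46.7% of its transcripts in 1 well, the second of the 2 wells rich in MHC class II transcripts. *Cytip* also had 48.0% in 1 well. *Mndal* and *Ifi205*, of the interferon-inducible PYHIN family, were at 1.92 and 2.15, in 8 of 48 wells each, against 1 and 4 wild-type wells for *Mndal* and 2 and 3 for *Ifi205*. *AI838599*, *Ssh1* and *Lrrc17* were at 2.15, 2.29 and 2.78. *Rn7sk* was found in 3 knockout wells and 0 wild-type wells.

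Transcripts given to the gene model *Gm10800*, which overlaps satellite repeats, made up a large share of the plate. They were 12.3% of the knockout sum (12.99%, 13.1% and 9.60% in libraries 5, 6 and 8) against 4.23% and 6.17% in wild type. The 3 remaining wells of library 7 were at 1.64%, below both. The 6 microglia-like wells of wild-type plate 3 were at 26.5%, above every knockout library, and with that plate added the log2 fold change went from 1.31 to -0.08. Gene models named Gm or with Rik gave 35 of the 129 higher genes and 1 of the 47 lower ones, out of 433 tested. With plate 3 added, 23 genes were higher and 3 lower.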

How the data were processed

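Single cells of E14.5 mouse brain were sequenced with mCEL-Seq2, which tags each molecule at its 3′ end. The authors deposited expected counts per gene and well, made by adjusting the observed molecular identifiers for collisions between molecules. All values followed that formula, to within 4.09e-12 of a whole number of identifiers. Per the submitters' processing notes, BWA 0.6.2-r126 and the build mm10 were used. Which libraries the other named tools (STAR, featureCounts, DESeq2) processed is not given in the sources used here. Spike-ins were left out of all totals.

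The microglia-like wells and the gene lists were chosen with earlier results of these data known. Wells were picked by the marker sums, ties were left out, and wells with *Mrc1* and *Pf4* were set apart. Genes used for this choice stayed in the fit and its adjustment, and their tests are not reported. Sums per plate, rounded to whole numbers, were compared with edgeR 4.0.16 (TMM scaling, its filter on low counts, quasi-likelihood test, two-sided, Benjamini-Hochberg adjusted p under 0.05) in R 4.3.3. The fit had 1 residual degree of freedom and infinite prior degrees of freedom, so its spread was pooled over genes. Single values per library were compared by two-sided exact permutation over libraries with at least 5 wells. Shares have exact (Clopper-Pearson) 95% intervals. Thinning drew 1500 transcripts per well, once, with a fixed seed. Plots and summaries used matplotlib 3.10.9, pandas 2.3.3, scipy 1.17.1 and numpy 2.4.6 under Python 3.11.15.

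Besides the 27 fixed lists, the text names the 12 higher and 12 lower called genes with the largest fold changes whose knockout libraries with at least 5 wells all lay on 1 side of the wild-type median, without gene models named Gm or Rik and mitochondrial genes. Coordinates are those of GENCODE vM21 on GRCm38. Alternatives covered DESeq2 1.42.0, scaling, the filter, well and gate choice, thinning, libraries as samples (also limma 3.58.1 with the plate as a random effect), wild-type plate 3 and each library left out. On simulated plate sums edgeR called 47 of 50 genes raised 4-fold and 19 of 50 lowered 4-fold, 11 and 6 of 50 at 2-fold, and 9 of 7205 unchanged genes. On the same sums DESeq2 called 16 and 4 of 50 at 4-fold. In the simulation every gene had the same spread in both genotypes, with no transcripts crowded into 1 well. Its rate of false calls need not hold for the real sums. Cells of plates 4 and 6 were only placed by the marker sums and counted. The bulk libraries were not used here, and a few genes are left unreported.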

Additional observations from a re-analysis of the deposited data

Results flagged for a closer look

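The neural-like wells of plate 5, whose share of this gene model is compared nowhere else, gave 9.47% of their transcripts to the gene model *Gm10800*, against 4.12% and 7.20% in neural-like wells of wild-type plates 1 and 2. This stood out because it is a signal outside the main measurement that lies above both control plates. Per library it was 10.7%, 12.2%, 4.98% and 11.1%, so library 7 lay between the control plates. In the microglia-like wells of libraries 5 to 8, set-apart wells included, the share was 14.7%, 12.1%, 10.5% and 7.22%.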

How the results depend on the processing

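Counts of called genes depended on the tool and on the wells. Against 129 higher and 47 lower genes, DESeq2 called 7 and 1 (133 with an unadjusted p below 0.05), libraries as samples 21 and 6, limma with the plate as a random effect 2 and 0 (460 unadjusted), and wells thinned to 1500 transcripts 35 and 10. Adding wild-type plate 3, which has 6 wells, gave 23 and 3. Alternatives added after seeing the data left out wells with monocyte or granulocyte transcripts (86 and 28) or also those with MHC class II transcripts (65 and 28). Keeping in the wells with *Mrc1* and *Pf4* gave 174 and 83. Leaving out 1 knockout library gave 50 to 136 higher and 44 to 53 lower genes, with 50 and 44 without library 5. Of the higher genes, 42 were also called without it. Total transcripts without TMM gave 111 and 69, which moves the share of higher calls by over 10 points. Leaving out a wild-type library left 1 plate against 1, with no count of calls. No paired analysis was possible because the labels give no pairing between wild-type and knockout libraries.

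Directions turned for *Ccl2* with the *Mrc1* and *Pf4* wells kept in (0.66), for *Gm10800* (-0.078), *Gm26870* (-0.28) and *Gm42519* (-0.36) with plate 3 added, for *Hdc* (0.61) and *Ifitm1* (1.35) against plate 1 only, for *Spp1* against plate 2 only (4.29) and with the random effect (1.29), and for *Hspa1a* without knockout library 6 (-0.25, and up to 2.02 without library 5). The causes were not tested. The share of wells set apart by Mrc1 and Pf4 without thinning differed by 37.4 points, and by 16.4 to 24.5 when 1 library was left out. The share of wells with G2 and M phase transcripts, -4.91 points, was 0.54 with plate 3 added and -17.8 to 9.14 with 1 library left out. Genes per well, -15.2 at 1500 transcripts, were -773 without thinning and 37.3 with plate 3 added. Over the tested alternatives, 760 values of named genes kept their direction and call, 332 kept the direction and lost the call, and 6 turned. Of the untested ratios to 1 plate, 75 stayed within 1 SE of the fitted value, 50 moved and 3 turned.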
